A study of Mus musculus and Homo sapiens with 12 samples.

Results

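The gene set examined here comprises 10 inflammatory cytokines and chemokines: IL1B, IL18, TNF, IL6, CCL2, CCL3, CCL4, CXCL8, CXCL2 and CXCL3. They were matched by symbol, without regard to case, in 2 RNA sequencing experiments on loss of DDX21, an RNA helicase of the nucleolus. In the human experiment 9 of the 10 were found among 78932 genes of the count table. IL6 was not paired there with an identifier in the sources used here and was not analysed in human cells. In the mouse experiment 9 of the 10 were found among 55487 genes, since mice have no CXCL8 gene. The set was selected on the measured human fold changes, among which IL1B and CCL2 are among the lowest, so the human values of the set are given as a description without a test. The rule does not use the mouse contrast, so mouse values keep their test, although mouse results were known when the set was drawn up.

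The human cells were blood stem cell-like cells differentiated from H1, an established embryonic stem cell line. They received a lentivirus with the mCherry reporter and a short hairpin RNA, either the control shNC or shDDX21, which targets DDX21, and live CD34+ CD45+ CD43+ cells carrying the hairpin were sorted 2 days later. The mouse cells were live Kit+ cells from E13.5 fetal liver that lacked the lineage antigens Gr1, Cd11b, CD3, B220 and Ter119 (LK cells). All mouse embryos carried Ddx21f/f alleles; the control group (WT) is labelled with these alleles alone, and the knockout group (cKO) carried Vav-Cre in addition, a Cre recombinase driven in blood cells. Each of the 4 groups had 3 libraries. The labels do not say whether libraries came from separate embryos or cultures, so p-values measure only the spread between these libraries.

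Interleukin-1 beta, interleukin-18, TNF and interleukin-6 are secreted signals that start and spread inflammation. The CC chemokines CCL2, CCL3 and CCL4 draw in monocytes and lymphocytes, and CXCL8, CXCL2 and CXCL3 draw in neutrophils through CXCR2. Most of these genes are switched on through Toll-like and interleukin-1 receptors by the transcription factor NF-kappaB, and many of the messenger RNAs carry AU-rich elements that make them short-lived. Interleukin-1 beta and interleukin-18 are made as precursors that caspase-1 cuts in the inflammasome. In the embryo, inflammatory signals of this kind also act on the formation of blood stem cells.

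Total counts were 15289510 to 19798608 per library in the human experiment and 21116079 to 23898130 in the mouse experiment. At these depths 3 counts, taken as the detection floor of a library, correspond to 0.154 to 0.196 CPM (read counts scaled by library size) in human and 0.122 to 0.146 CPM in mouse. DDX21 was at 14.5% of control in shDDX21 and at 19.7% of WT in cKO (edgeR adjusted p 1.33e-70 and 5.91e-08, n = 3 per group). The sort markers KIT, CD34, PTPRC (CD45) and SPN (CD43) were expressed in both experiments. Across the human genes tested, 52.7% passed an adjusted p of 0.05, and 36.5% did in mouse.

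In the human cells 8 of the 9 genes were lower in every shDDX21 library than in every shNC library, and IL18 alone was higher in every one. The same non-overlap in the lower direction held for 29.5% of all 20188 human genes tested, and in the higher direction for 27.9%. IL1B, CCL2, CCL3, TNF and CCL4 were lower by 2-fold or more, a size reached by 3.85% of genes tested, and CXCL8, CXCL2 and CXCL3 were lower by less than that. Summed over the 9 genes, the level was 154.8 to 164.0 CPM in shNC and 67.9 to 71.7 CPM in shDDX21, or 44.3% of control. The median log2 fold change of the 9 was -1.18, against 0.0052 over all genes tested. These counts and shares follow from a choice made on the same contrast. In bulk RNA, fewer cells of a type and less RNA per cell cannot be told apart.

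**Figure D1:**
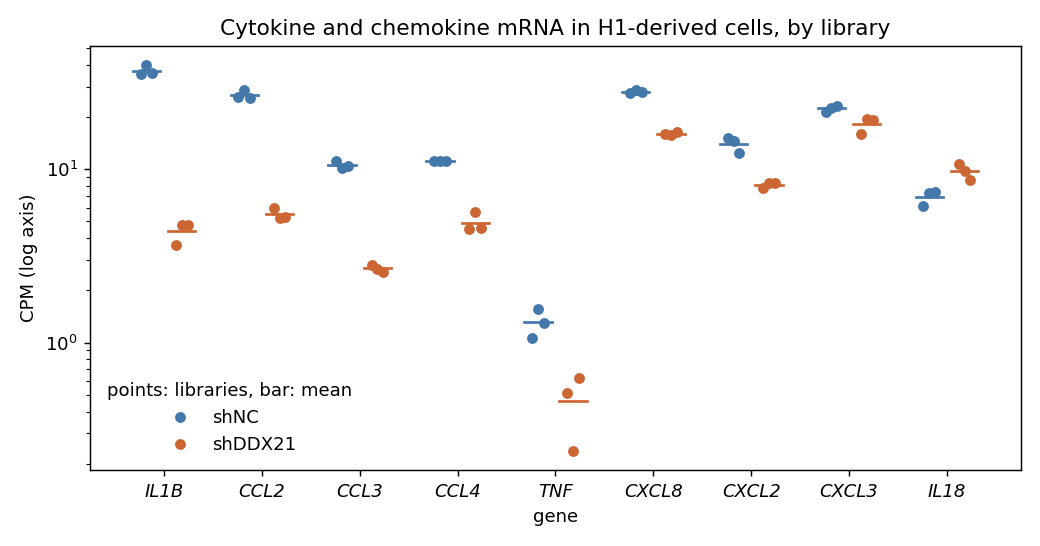
Level of each of the 9 human genes in CPM (log axis), with 1 point per library and a bar at the group mean (n = 3 shNC, n = 3 shDDX21). The groups do not overlap for any gene; IL1B has the widest gap, from 37.1 to 4.39 CPM, and IL18 is the gene that is higher in shDDX21.

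IL1B (ENSG00000125538; hg38 chromosome 2, 112829751 to 112836816, minus strand) encodes interleukin-1 beta. It had 671, 609 and 639 counts in the shNC libraries and 71, 80 and 84 in the shDDX21 libraries. The highest shDDX21 library thus lay far below the lowest control. Its level was 37.1 ± 2.33 CPM (SD, n = 3) in shNC and 4.39 ± 0.646 CPM in shDDX21, which is 11.8% of control. The log2 fold change of -3.08 (SE 0.0939) was the lowest of 11688 human genes with a mean of at least 5 CPM. IL1B made up 22.9% to 24.2% of the summed level of the 9 genes in the control libraries and 5.37% to 6.79% in the shDDX21 libraries. A gene on the opposite strand of the same locus, ENSG00000299339, had 6 to 15 counts in every library.

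The CC chemokines followed in order of size. CCL2 (chromosome 17, 34255274 to 34257208, plus strand), the main monocyte attractant, had 491, 438 and 457 counts with shNC against 116, 88 and 93 with shDDX21. Its level was 26.8 ± 1.59 CPM in shNC and 5.49 ± 0.405 CPM in shDDX21, with a log2 fold change of -2.28 (SE 0.0948), the 6th lowest of the same 11688 genes. CCL3 (chromosome 17, 36088256 to 36090169, minus strand), also known as MIP-1 alpha, had 210, 154 and 187 counts against 55, 45 and 45. It ranked 15th from the lowest, with 10.6 ± 0.531 CPM in shNC, 2.68 ± 0.131 CPM in shDDX21 and a log2 fold change of -1.97 (SE 0.14).

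CCL4 (chromosome 17, 36103827 to 36105621, plus strand), or MIP-1 beta, lies 13.7 kb from CCL3. It had 210, 170 and 199 counts with shNC against 88, 96 and 80 with shDDX21. The level was 11.1 ± 0.0544 CPM in shNC and 4.92 ± 0.667 CPM in shDDX21, with a log2 fold change of -1.18 (SE 0.121). Per kilobase of exon (FPKM, CPM divided by exon length in kilobases), mean CCL3 was the higher of the pair in shNC (7.07 against 6.2 FPKM) and the lower in shDDX21 (1.8 against 2.74 FPKM). Both genes have near-identical copies beside them, CCL3L3 and CCL4L1, among which the counting could split reads, so single values are uncertain. CCL3 and CCL3L3 together were at 24% of control, from 26.1 to 29.1 CPM in shNC to 6.43 to 6.57 CPM in shDDX21. CCL4 and CCL4L1 together were at 37.5%, from 27.4 to 27.8 CPM to 9.05 to 11.1 CPM. CCL2 lies 1831 kb away from CCL3, outside this pair.

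The CXC chemokines of the set were lower by less. CXCL8 (chromosome 4, 73740519 to 73743716, plus strand), or interleukin-8, had 518, 438 and 497 counts with shNC against 312, 265 and 288 with shDDX21. Its level was 28 ± 0.59 CPM in shNC and 16 ± 0.346 CPM in shDDX21, with a log2 fold change of -0.80 (SE 0.0722). CXCL2 (chromosome 4, 74097040 to 74099196, minus strand) had 285, 222 and 221 counts against 151, 141 and 147. That corresponds to 14 ± 1.39 CPM in shNC and 8.16 ± 0.354 CPM in shDDX21, a log2 fold change of -0.78 (SE 0.102), close to that of CXCL8.

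CXCL3 (chromosome 4, 74036589 to 74038807, minus strand) was the least changed of the 8 lower genes. It had 404, 346 and 413 counts with shNC against 311, 327 and 337 with shDDX21. The levels of 22.4 ± 0.944 and 18.2 ± 1.92 CPM gave a log2 fold change of -0.31 (SE 0.0774). The groups did not overlap in CPM, but the gap between the nearest libraries, 21.4 and 19.4 CPM, was small. The unnamed gene ENSG00000287037 overlaps CXCL3 on the opposite strand and had 68, 70 and 92 counts with shNC against 125, 103 and 88 with shDDX21; whether the counting used strand is not given in the sources used here. CXCL8, CXCL3 and CXCL2 lie within 359 kb. Their neighbour CXCL1, a close relative, was at 4.84 ± 1.46 CPM in shNC and 4.46 ± 0.54 CPM in shDDX21 and did not pass the test (log2 fold change -0.15, edgeR adjusted p 0.473). CXCL6, named for its place in this cluster with its values known, rose from 5.58 to 7.52 CPM (log2 fold change 0.43, SE 0.131, edgeR adjusted p 0.00409). Genes of this cluster thus had values of either sign.

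TNF (chromosome 6, 31575565 to 31578336, plus strand) was the rarest of the 9. It had 20, 24 and 23 counts with shNC against 10, 4 and 11 with shDDX21. The level was 1.31 ± 0.254 CPM in shNC and 0.459 ± 0.2 CPM in shDDX21, and the log2 fold change of -1.47 carried the largest standard error of the set (0.38). Its size is therefore less well fixed than that of IL1B or CCL2.

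IL18 (chromosome 11, 112143251 to 112164096, minus strand) differed in sign from the other 8. It had 116, 111 and 132 counts with shNC against 208, 164 and 153 with shDDX21. The level was 6.94 ± 0.698 CPM in shNC and 9.7 ± 0.982 CPM in shDDX21, which is 139.9% of control (log2 fold change 0.49, SE 0.117). Interleukin-18 shares its processing by caspase-1 with interleukin-1 beta, so the precursors of the same protease were at opposite sides of zero.

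By level per kilobase (FPKM), the control order was CCL2 (13.8 ± 0.821), IL1B (12.3 ± 0.775), CXCL8 (10.8 ± 0.228), CXCL3 (10.1 ± 0.426), CXCL2 (10 ± 0.993), CCL3 (7.07 ± 0.355), CCL4 (6.2 ± 0.0303), IL18 (2.66 ± 0.268) and TNF (0.779 ± 0.152). The libraries of CXCL2 overlapped in FPKM with those of CXCL8 and of CXCL3. In shDDX21 the order began with CXCL3 (8.19 ± 0.866), CXCL8 (6.2 ± 0.134), CXCL2 (5.84 ± 0.254) and IL18 (3.72 ± 0.377). It ended with CCL2 (2.84 ± 0.209), CCL4 (2.74 ± 0.371), CCL3 (1.8 ± 0.0878), IL1B (1.46 ± 0.215) and TNF (0.274 ± 0.119). CCL2 and CCL4 did not differ beyond their spread there. IL1B thus stood near the top in shNC and next to last in shDDX21.

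Partner genes that are not in the set keep their test, with 27.4% of human genes tested called lower and 25.3% called higher. Only 12 of 28 other cytokines and chemokines listed had a symbol in the deposited normalized values and could be looked up. Of these 12, all tested, 6 fell and 3 rose. The list holds CCL3L3 and CCL4L1. CSF2, the growth factor GM-CSF, fell from 2.23 ± 0.563 to 0.218 ± 0.152 CPM (log2 fold change -3.30, edgeR adjusted p 2.66e-11). Its shDDX21 level was near the detection floor of 0.154 to 0.178 CPM in these libraries, so the size of the change is uncertain. CSF2 passed the count filter through shNC alone, so the numbers that fell and rose are not read as support. IL1A, the sister cytokine of IL1B and named here for that relation with its value known, fell from 3.35 ± 0.268 to 0.905 ± 0.299 CPM (log2 fold change -1.90, edgeR adjusted p 7.17e-10). TGFB1, a cytokine with largely opposing, anti-inflammatory roles, rose from 407.5 ± 9.66 to 612.5 ± 5.29 CPM (log2 fold change 0.59, edgeR adjusted p 1.02e-35).

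Of 16 receptors and decoys tested, 11 fell and 3 rose. The list holds 18, and the rest had no symbol that could be looked up. IL1RAP, the chain that the interleukin-1 receptor needs to signal, fell from 18.1 ± 0.765 to 6.02 ± 1.22 CPM (log2 fold change -1.58, edgeR adjusted p 7.6e-22). IL1R1, the binding chain, and IL1RN, the receptor antagonist, were named for their place in the same system with their values known. They had log2 fold changes of -0.94 and -1.30 (edgeR adjusted p 1.31e-10 and 1.45e-16). IL6R fell from 50.6 ± 1.74 to 31.9 ± 1.35 CPM (log2 fold change -0.67, edgeR adjusted p 4.13e-18). The genes that rose included IL18BP, the soluble inhibitor of interleukin-18, from 24.7 ± 1.96 to 47 ± 3.49 CPM (log2 fold change 0.94, edgeR adjusted p 1.53e-22). ACKR2, a scavenging receptor that removes CC chemokines, rose from 36.7 ± 0.867 to 77.1 ± 2.09 CPM (log2 fold change 1.07, edgeR adjusted p 4e-32).

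The inflammasome and release list had 4 of 9 tested genes lower and none higher. It holds 11 genes, and the rest had no symbol that could be looked up. NEK7, a partner of NLRP3, fell from 76.3 ± 1.89 to 48.5 ± 2.48 CPM (log2 fold change -0.65, edgeR adjusted p 1.44e-21). CASP1, the protease that cuts both interleukin precursors, fell from 6.11 ± 0.663 to 3.25 ± 0.255 CPM (log2 fold change -0.91, edgeR adjusted p 6.05e-07). The sensors AIM2 and NLRP3 had log2 fold changes of -0.53 and -0.76 (edgeR adjusted p 4.28e-05 and 0.000666).

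**Figure D2:**
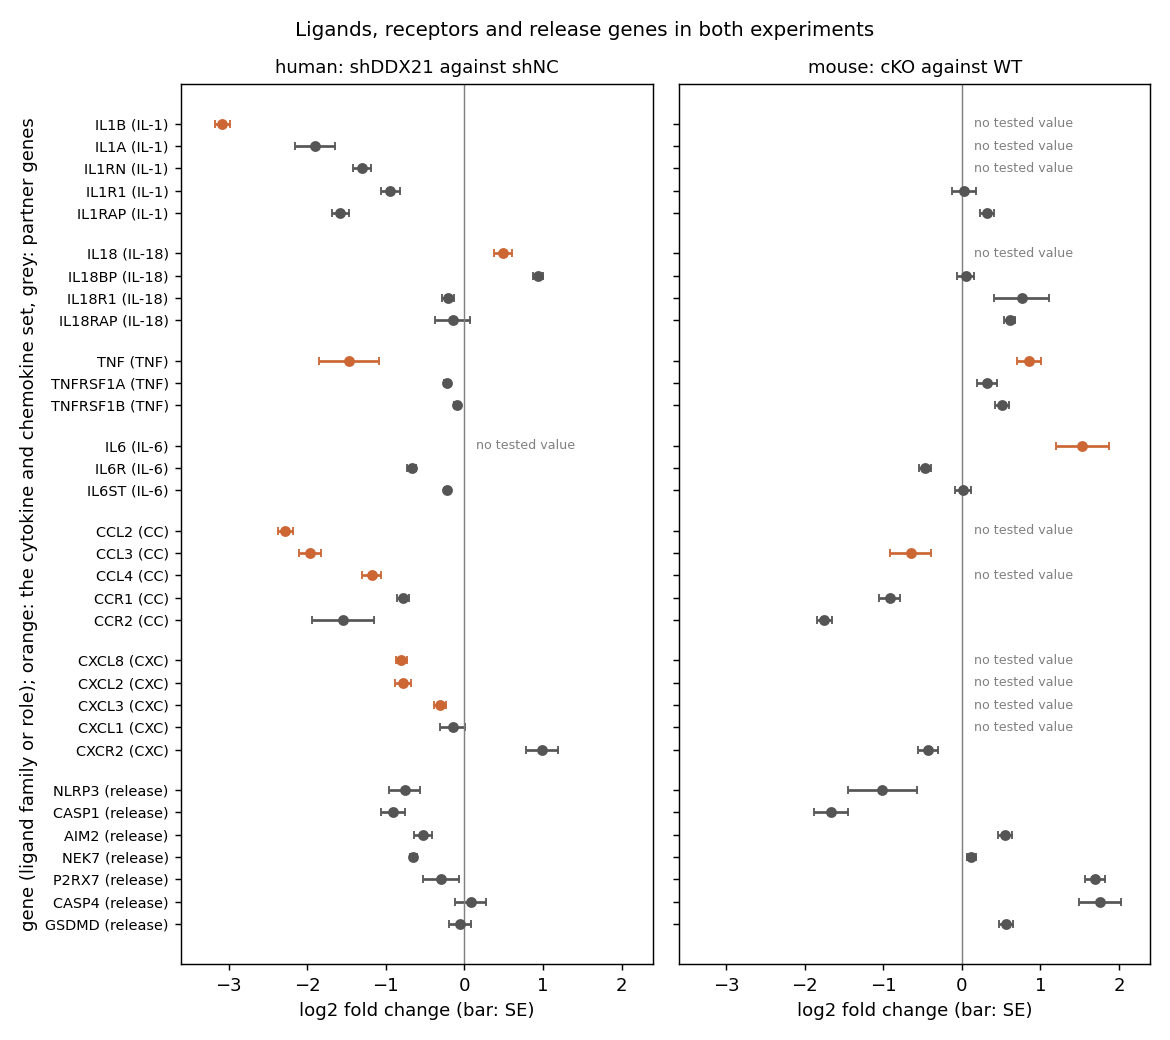
Log2 fold change (perturbed over control, bar: SE, n = 3 per group) of ligands, receptors and release genes in the human and mouse fits, with the cytokine and chemokine set in orange. Human IL1B lies at -3.08 and mouse Tnf and Il6 at 0.86 and 1.53; most of the set has no tested value in mouse.

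Upstream of the cytokines, the Toll-like receptor list had 5 of 15 tested human genes lower and 2 higher, with a median log2 fold change of -0.09. IRAK3, an inhibitor of the pathway, fell (log2 fold change -0.93, edgeR adjusted p 7.66e-18), as did TAB2 (-0.30, edgeR adjusted p 3.95e-13), an adaptor of the kinase TAK1. The kinase IRAK1 and the adaptor MYD88 rose (log2 fold changes 0.44 and 0.41, edgeR adjusted p 1.89e-24 and 1.42e-12). Of 16 NF-kappaB factors and inhibitors, 4 fell and 4 rose, with a median of -0.014. NFKB1, the p50 precursor, and BCL3, a nuclear partner of p50, had log2 fold changes of -0.44 and -0.52 (edgeR adjusted p 1.3e-10 and 4.08e-10). IKBKB, a kinase of the activating IKK complex, and IKBKG, its regulatory subunit, were at 0.15 and 0.34 (edgeR adjusted p 0.000431 and 0.000474). IL1B, CCL2 and CCL3 changed by more, but the set was selected on this contrast, so the comparison of sizes is not read as a result.

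Of 10 genes for cytokine mRNA turnover, 8 fell and 1 rose in human cells. ZFP36L2, which promotes decay of AU-rich messages, fell from 112.6 ± 0.819 to 68.2 ± 0.326 CPM (log2 fold change -0.72, edgeR adjusted p 2.1e-28). HNRNPD, also called AUF1 and an AU-rich element binding protein, and ELAVL1, or HuR, which stabilises such messages, had log2 fold changes of -0.48 and -0.45 (edgeR adjusted p 3.43e-28 and 2.12e-20). KHSRP, another decay factor, was at -0.16 (edgeR adjusted p 1.1e-08). Members with opposing known effects on message stability thus fell together.

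Myeloid transcription factors and markers of several cell types moved in the same libraries. Of 7 myeloid transcription factors, 5 fell and none rose. IRF8, a factor of the monocyte lineage, fell from 76.5 ± 0.985 to 32.9 ± 2.7 CPM (log2 fold change -1.22, edgeR adjusted p 6.23e-34). CEBPB, which binds cytokine promoters, fell from 66.1 ± 2.14 to 33.3 ± 1.13 CPM (log2 fold change -0.99, edgeR adjusted p 1.16e-28). CEBPA and SPI1 were at -1.29 and -0.17 (edgeR adjusted p 1.73e-15 and 4.61e-07).

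Of 19 monocyte and macrophage markers, 13 fell and 3 rose in human cells, with a median log2 fold change of -0.67. Their summed level was 855.1 to 864.3 CPM in shNC and 821.1 to 823.4 CPM in shDDX21. CSF1R, which rose, held a large part of this sum, so the sum does not stand for most of the markers. CD14 fell from 7.93 ± 0.196 to 3.28 ± 0.429 CPM and S100A9 from 13.8 ± 1.08 to 2.84 ± 0.249 CPM (edgeR adjusted p 5.27e-12 and 1.48e-25). LYZ fell from 60.7 ± 0.546 to 39.2 ± 0.829 CPM, while CSF1R, the receptor of the macrophage growth factor, rose from 360.6 ± 5.46 to 419.5 ± 2.33 CPM (edgeR adjusted p 2.94e-19 and 3.36e-13). Of 5 neutrophil markers tested, 3 fell and 1 rose, and their sum went from between 337.1 and 351.4 CPM to between 158.8 and 159.9 CPM. MPO, the granule enzyme of early neutrophils, fell from 163.2 ± 6.49 to 31.6 ± 2.1 CPM (edgeR adjusted p 2.32e-55). That was most of the fall in the neutrophil sum, so the sum does not stand for most of the markers. Endothelial markers had 6 of 10 lower and 3 higher, with sums of 1931 to 1983 CPM in shNC and 1620 to 1639 CPM in shDDX21. FLT1, a VEGF receptor, fell from 94.9 ± 1.59 to 31.1 ± 1.64 CPM and TEK, the angiopoietin receptor, rose from 84.6 ± 1.06 to 129.4 ± 6.41 CPM (edgeR adjusted p 8.26e-43 and 6.27e-25). Of 5 mast cell and basophil markers 2 fell, with sums of 363.8 to 368.5 CPM against 361.8 to 369.3 CPM (1 called without shNC replicate 1, shNC replicate 3 or shDDX21 replicate 1, each left out in turn). Only markers with a symbol in the deposited normalized values could be looked up. These were 19 of 23 monocyte and macrophage, 5 of 13 neutrophil, 5 of 7 mast cell and basophil and 10 of 10 endothelial markers. None of those found was at 0 in all libraries, which says nothing about the markers not found. The part of such cells in the lower cytokine levels was not tested.

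**Figure D3:**
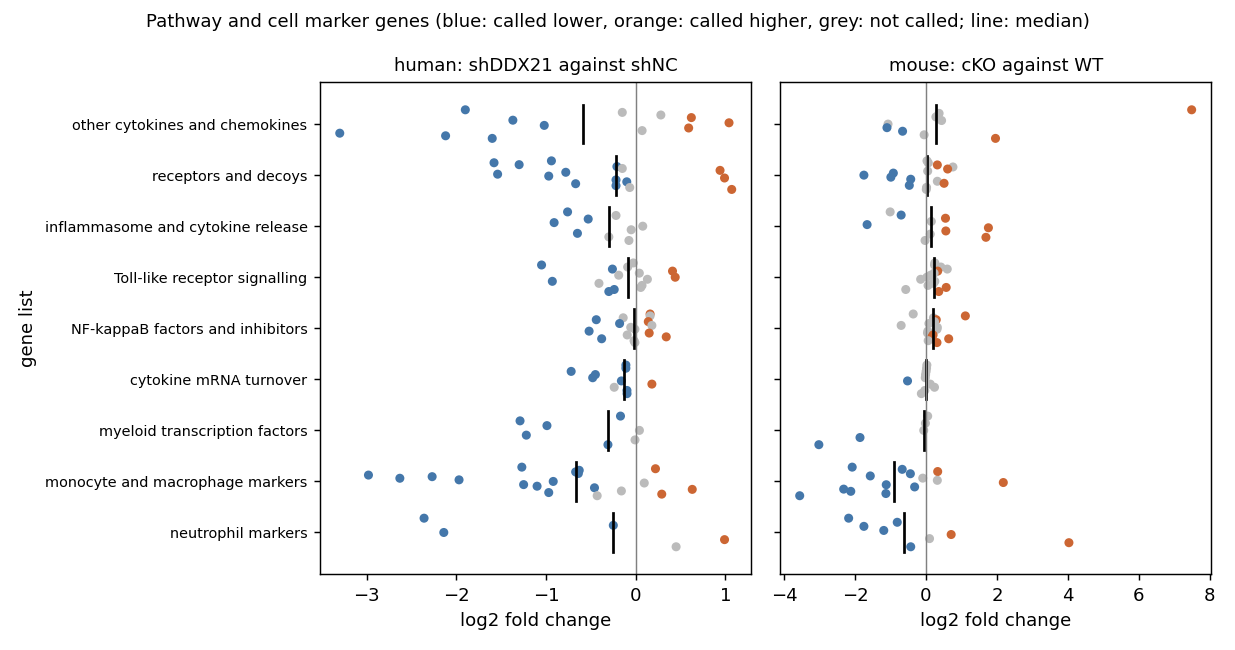
Log2 fold change of each tested gene (points) by list in the human and mouse fits, colored by call, with the list median as a line (x axes differ). The human receptor, turnover and myeloid factor lists have most of their calls below 0, and the mouse NF-kappaB list has its 6 calls above 0.

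In mouse LK cells nearly all of the set was close to the detection floor. Of the 9 genes, 6 fell below the count filter and 3 had at most 3 counts in every library. Ccl3, Tnf and Il6 could be tested. Tnf and Il6 were called higher in cKO and none of the 3 was called lower. Of the 14918 mouse genes tested, 20.7% were called higher and 15.8% lower. Il6 passed the count filter through cKO alone, so this count is not read as support. Summed over the 9 genes, the mouse level was 2.78 to 3.36 CPM in WT and 4.26 to 4.88 CPM in cKO.

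**Figure D4:**
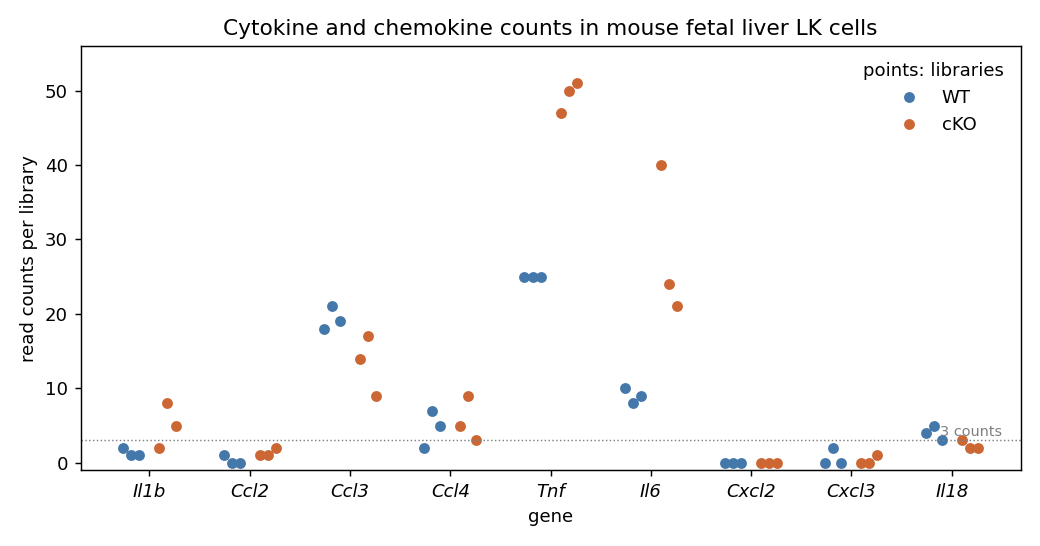
Read counts of the 9 mouse genes, with 1 point per library (n = 3 WT, n = 3 cKO) and a dotted line at the detection floor of 3 counts. Tnf and Il6 stand higher in every cKO library, as 27.6% of mouse genes tested do, and Cxcl2 is at 0 throughout.

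The promoters of Tnf and Il6 are shown because these are the genes that rose, and that of Cxcl2 because it held no read in any library. Each is the 250 bases before the RefSeq start site (GRCm38.p6), written 5′ to 3′ along the gene, with matches to the NF-kappaB (kappaB) consensus on either strand in capitals. The windows are chr17:35202008-35202257 on the minus strand for Tnf, and, on the plus strand, chr5:30012864-30013113 for Il6 and chr5:90903649-90903898 for Cxcl2.
Tnf: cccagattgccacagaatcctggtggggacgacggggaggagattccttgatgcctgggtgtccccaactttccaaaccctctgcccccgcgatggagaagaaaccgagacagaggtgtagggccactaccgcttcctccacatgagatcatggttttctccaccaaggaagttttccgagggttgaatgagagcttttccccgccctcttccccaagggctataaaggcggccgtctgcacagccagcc
Il6: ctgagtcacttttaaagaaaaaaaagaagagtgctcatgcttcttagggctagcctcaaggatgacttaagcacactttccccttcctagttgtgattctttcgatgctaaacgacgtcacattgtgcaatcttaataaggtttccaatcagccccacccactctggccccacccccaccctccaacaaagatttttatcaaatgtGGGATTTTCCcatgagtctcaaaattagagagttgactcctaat
Cxcl2: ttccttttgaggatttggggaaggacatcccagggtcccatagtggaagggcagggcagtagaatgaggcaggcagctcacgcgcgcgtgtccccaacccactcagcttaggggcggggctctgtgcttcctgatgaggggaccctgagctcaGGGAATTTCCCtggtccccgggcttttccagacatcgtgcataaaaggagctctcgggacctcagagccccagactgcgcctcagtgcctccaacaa
The Il6 window holds the consensus at -44 to -35 from the start. Cxcl2 holds it at -97 to -88 and, shifted by a base, at -96 to -87, and the Tnf window has no match. Among 26742 mouse genes with an entry, 8.27% have a match in this window. RefSeq entries were found for 7 of the 9 mouse genes (not Ccl2 and Ccl4), of which Il6, Cxcl2 and Cxcl3 have a kappaB match. The other motifs searched on both strands were TGANTCA of AP-1 (7.81% of genes), TTGCNNAA of C/EBP (10.9%) and TATAAA (14.3%). Il6 holds the AP-1 letters at -249 to -243 and the C/EBP letters at -128 to -121, and Tnf holds TATAAA at -29 to -24. A match is a run of letters and not a measured binding site, and a site outside the 250 bases would not be seen. Whether matches go with the changes in level was not tested.

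Tnf (ENSMUSG00000024401; GRCm38 chromosome 17, 35199381 to 35202007, minus strand) gave 25 counts in each WT library and 47, 50 and 51 in the cKO libraries. Every cKO library was above every WT library, which held for 27.6% of all 14918 mouse genes tested. WT averaged 1.17 ± 0.0481 CPM (SD, n = 3) and cKO 2.13 ± 0.16 CPM, with a log2 fold change of 0.86 (SE 0.153, edgeR adjusted p 0.00428). Il6 (ENSMUSG00000025746; chromosome 5, 30013114 to 30019981, plus strand) had 10, 8 and 9 counts in WT against 40, 24 and 21 in cKO. The groups did not overlap, with replicate 1 above the other cKO libraries. Its level was 0.419 ± 0.0296 CPM in WT and 1.22 ± 0.45 CPM in cKO (log2 fold change 1.53, SE 0.336, edgeR adjusted p 0.0109). Since Il6 passed the count filter through cKO alone, its p is not read as support.

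Ccl3 (chromosome 11, 83647844 to 83649355, minus strand) held 18, 21 and 19 counts in WT against 14, 17 and 9 in cKO. With 0.904 ± 0.109 CPM in WT against 0.569 ± 0.145 in cKO, it was lower in every cKO library, but it did not pass the test (log2 fold change -0.65, SE 0.259, edgeR adjusted p 0.0893). Such non-overlap in the lower direction held for 21.4% of mouse genes tested. Per kilobase, Ccl3 was the first of the 3 in WT (1.18 ± 0.142 FPKM, against 0.711 ± 0.0293 for Tnf and 0.172 ± 0.0122 for Il6). In cKO the order was Tnf (1.3 ± 0.0975), Ccl3 (0.743 ± 0.189) and Il6 (0.503 ± 0.185), the last of these not apart from Ccl3 beyond their spread.

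The remaining mouse genes could not be compared at this depth. Il1b, the gene with the largest human difference, had 2, 1 and 1 counts in WT against 2, 8 and 5 in cKO. It overlaps the opposite-strand gene Il1bos, which had 9, 6 and 9 counts in WT against 20, 7 and 13 in cKO. Ccl4 had 2, 7 and 5 counts against 5, 9 and 3, and Il18 had 4, 5 and 3 against 3, 2 and 2. Ccl2 had at most 2 counts in any library, Cxcl3 at most 2, and Cxcl2 none. CXCL8's mouse relatives Cxcl1 and Cxcl5 were also near the floor, with no counts of Cxcl1 in any library and at most 4 of Cxcl5. A direction for Il1b or Ccl2 like that in human cells was therefore not detectable in these LK cells.

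Among 9 other mouse cytokines and chemokines tested, 2 rose and 2 fell. Lif, an interleukin-6 family cytokine, had 0, 3 and 0 counts in WT against 232, 220 and 202 in cKO. With WT set to the floor of 3 counts per library, Lif was at least 67.1-fold higher in cKO (edgeR adjusted p 1.91e-05). Ccl9, a CC chemokine of mice, fell from 16.9 ± 1.83 to 10.7 ± 0.589 CPM (log2 fold change -0.66, edgeR adjusted p 0.00254). The other 2 called genes, Ppbp (higher) and Ccl6 (lower), were below 1 CPM on average. Lif and Ppbp passed the count filter through cKO and Ccl6 through WT, so the numbers that rose and fell are not read as support. When WT replicate 1, WT replicate 2 or cKO replicate 3 was left out in turn, 2 of the list were called.

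Of 15 mouse receptors and decoys tested, 5 fell and 3 rose. Ccr2, the receptor of Ccl2, fell from 20 ± 0.925 to 5.92 ± 0.542 CPM (log2 fold change -1.75, edgeR adjusted p 1.78e-05). Ccr1, a receptor of Ccl3, fell from 5.03 ± 0.32 to 2.66 ± 0.332 CPM (log2 fold change -0.92, edgeR adjusted p 0.00175). Il6ra fell from 20.7 ± 0.584 to 14.9 ± 0.833 CPM (log2 fold change -0.47, edgeR adjusted p 0.00258), while its ligand Il6 rose. Il18rap, the accessory chain of the interleukin-18 receptor, rose from 16.6 ± 0.276 to 25.3 ± 1.47 CPM (log2 fold change 0.61, edgeR adjusted p 0.000626).

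In the release list 4 of 10 mouse genes rose and 2 fell. P2rx7, an ATP-gated channel that can trigger the inflammasome, rose from 5.27 ± 0.873 to 17 ± 0.51 CPM (log2 fold change 1.69, edgeR adjusted p 6.99e-05). Casp4, the non-canonical inflammatory caspase, and Gsdmd, the pore former, had log2 fold changes of 1.76 and 0.56 (edgeR adjusted p 0.00225 and 0.00219). Casp1 fell from 2.06 ± 0.389 to 0.644 ± 0.0405 CPM (log2 fold change -1.66, edgeR adjusted p 0.00107).

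The mouse Toll-like receptor list had 3 of 15 genes higher and none lower (5 called without cKO replicate 1), led by Map3k7, the TAK1 kinase (130.3 ± 9.51 to 192.8 ± 8.71 CPM, log2 fold change 0.57, edgeR adjusted p 0.00044). Tab2 and Myd88 were at 0.36 and 0.33 (edgeR adjusted p 0.00182 and 0.00366). Of 16 NF-kappaB factors and inhibitors, 6 rose and none fell. These included subunits of the activating IKK complex, the regulatory Ikbkg and the kinase Chuk (log2 fold changes 0.17 and 0.20, edgeR adjusted p 0.0262 and 0.0367), and the inhibitors Cyld and Tnfaip3 (0.31 and 0.64, edgeR adjusted p 0.00554 and 0.0221). When WT replicate 1, WT replicate 2 or cKO replicate 3 was left out in turn, 1 of the 16 was called, and DESeq2 called 3. Of 10 turnover genes 1 was called, Khsrp, which fell (log2 fold change -0.52, edgeR adjusted p 0.0274), and none was called when WT replicate 1, WT replicate 2, cKO replicate 2 or cKO replicate 3 was left out in turn.

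Myeloid transcription factors and markers of monocytes, macrophages and neutrophils moved with the knockout in the sorted LK cells. Irf8 fell from 28 ± 2.07 to 7.7 ± 0.277 CPM (edgeR adjusted p 8.41e-06), with 2 of 5 myeloid transcription factors tested lower and none higher. The other factor called lower passed the count filter through WT alone, so this count is not read as support. Of 14 monocyte and macrophage markers tested, 10 fell and 2 rose, and the sum over the list was 112.2 to 115.7 CPM in WT and 59.9 to 61.4 CPM in cKO. Some of these markers passed the count filter through WT or cKO alone, so the numbers that fell and rose are not read as support. Csf1r fell from 30.5 ± 1.35 to 7.2 ± 0.65 CPM and Lyz2 from 28.1 ± 0.989 to 17.6 ± 0.997 CPM (edgeR adjusted p 6.56e-06 and 0.000424). Cd14 had 3, 6 and 1 counts in WT and 0 in each cKO library. Of 8 neutrophil markers tested, 5 fell and 2 rose, with sums of 662.1 to 916.2 CPM in WT and 360.5 to 610.0 CPM in cKO (4 called without cKO replicate 3). Mpo fell from 700.1 ± 119.1 to 400.1 ± 116.0 CPM and Csf3r rose from 29.3 ± 1.4 to 47.8 ± 2.27 CPM (edgeR adjusted p 0.0237 and 0.000193). Mpo held most of the neutrophil sum, so the sum does not stand for most of the markers. Ltf, a granule protein gene, rose from 0.137 ± 0.117 to 2.36 ± 0.391 CPM (edgeR adjusted p 0.000256), but it passed the count filter through cKO alone. How these markers bear on the higher Tnf and Il6 was not tested.

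The 7 hepatocyte markers had a summed level of 1.39 to 1.81 CPM in WT and 28.8 to 32.3 CPM in cKO. The 4 that could be tested were called higher, but most passed the filter through cKO alone, so their number is not read as support. Alb rose from 0.417 ± 0.18 to 12.1 ± 1.47 CPM and Afp from 0.857 ± 0.102 to 14.4 ± 0.579 CPM (edgeR adjusted p 1.06e-05 and 1.32e-06). Endothelial markers had 5 of 10 higher and none lower, with sums of 101.7 to 124.8 CPM in WT and 138.9 to 168.4 CPM in cKO; Tek rose from 8 ± 0.45 to 33.1 ± 3.32 CPM (edgeR adjusted p 1.02e-05). Mast cell and basophil markers had 2 of 6 higher, with sums of 103.9 to 104.2 CPM against 128.0 to 134.6 CPM (4 called without cKO replicate 2). The part of any of these cells in the higher Tnf, Il6 and Lif was not tested.

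Set side by side, TNF was the gene of the set measured above the filter in both experiments with values of opposite sign: 0.86 in mouse cKO against WT and -1.47 in human shDDX21 against shNC. CCL3 was at -0.65 (not called) in mouse and -1.97 in human. No other gene of the set had a tested value in both. Of 17 partner genes in the pathway lists that were called in both experiments, 7 fell in both, 2 rose in both and 8 had opposite signs; among all 3061 matched genes called in both, 1073 fell, 663 rose and 1325 had opposite signs. The genes that rose in both were MYD88 (0.33 and 0.41) and IKBKG (0.17 and 0.34). Those that fell included IRF8 (-1.86 and -1.22), CASP1 (-1.66 and -0.91), CCR2 (-1.75 and -1.54), CCR1 (-0.92 and -0.78), IL6R (-0.47 and -0.67) and KHSRP (-0.52 and -0.16). CCR2 and CCR1 in human were named after their values were seen. The experiments differ in species, cell source, method and time of DDX21 loss, and the difference between them was not tested.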

How the data were processed

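Polyadenylated RNA was sequenced in 12 libraries. Per the submitters' processing notes, reads were handled with STAR, featureCounts and DESeq2 on mm10 and hg38; versions, strand setting and the treatment of multi-mapping reads are not given in the sources used here. The authors deposited raw read counts per gene, which were analysed here. Their deposited normalized values (unit: signal) were checked to equal the counts divided by 1 constant per library (largest relative deviation 4.97e-10). These and the deposited log2 values were used only for gene symbols, which pair 14931 human genes. Mouse symbols came from 55146 matches to GENCODE M21.

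Counts were fitted per experiment with edgeR 4.0.16 (R 4.3.3; filterByExpr, TMM scaling, quasi-likelihood test, two-sided, Benjamini-Hochberg adjustment over all genes tested, called under 0.05) and no covariate. A gene's SE is the size of its log2 fold change divided by the square root of F. CPM uses the TMM-scaled library size. The procedure was tested on simulated data. The detection floors cover counting error only, while SD and SE include the spread between libraries. An exact permutation test of 3 against 3 libraries cannot give p below 0.1.

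The members and lists were chosen with earlier results of these data known. Text names all members, DDX21, CXCL1, CXCL5 and copies of CCL3 and CCL4, defining and sort markers, and up to 4 called genes per list with the smallest p and a mean of at least 1 CPM; exceptions are marked. Alternatives were other scaling, DESeq2 1.42.0, no filter, a replicate block and each library left out.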

Additional observations from a re-analysis of the deposited data

Results flagged for a closer look

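In 14 genes every knockout or knockdown library lay on one side of its controls in mouse and on the opposite side in human cells. They are 8 of 71 genes of the pathway lists tested in both experiments (11.3%, against 12.1% of all 10313 genes matched by symbol), TNF, which is 1 of the 2 genes of the cytokine set tested in both, and 5 cell or sort markers. The list genes were also called in both experiments. The difference between the experiments was not tested, and they differ in species, cells and method. TNF was the gene of the cytokine set among them, with log2 fold changes of 0.86 in mouse and -1.47 in human. Lif, whose WT level was at the floor, had a fitted value of 7.49 in mouse against -1.02 in human. Among receptors, Il1rap had 0.32 and -1.58, Cxcr2 -0.43 and 0.99, and Tnfrsf1b 0.51 and -0.10 in mouse and human. In the signalling lists the pairs were 0.55 and -0.53 for Aim2, 0.36 and -0.30 for Tab2, 0.29 and -0.44 for Nfkb1, and 0.64 and -0.38 for Tnfaip3. Of the cell markers, Csf1r had -2.08 in mouse and 0.22 in human, and Csf3r 0.71 and -0.25. The sort markers Kit (-0.19 and 0.13), Ptprc (0.51 and -0.45) and Spn (-0.14 and 0.35) also moved apart.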

How the results depend on the processing

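Each log2 fold change of the set kept its direction, and in mouse its side of the threshold, under all alternatives run. Tnf reached an adjusted p of at most 0.0347 (DESeq2) and Il6 of at most 0.0446 (edgeR without WT replicate 2). In the main fit Il6 passed the count filter through cKO alone, so its calls are not read as support. Leaving out each library, IL1B ranged from -3.15 to -2.95, TNF from -1.74 to -1.18, CXCL3 from -0.35 to -0.21, and mouse Il6 from 1.20 to 1.69. With scaling by total counts, 68.9% of mouse calls were higher, against 56.6%. The counts of listed genes called moved more, and the causes were not tested. In mouse, total counts gave 5 Toll-like receptor genes (3 in the report), 2 turnover genes (1), 2 sort markers (4) and 0 lineage antigens (1). RLE factors gave 2 turnover genes. DESeq2 gave 3 NF-kappaB genes (6), 1 mast cell gene (2) and 0 lineage antigens. No filter gave 4 mast cell genes and 0 lineage antigens. In human, DESeq2 and no filter each gave 1 mast cell gene (2). Without 1 library, mouse counts ranged from 2 to 5 for other cytokines, 3 to 5 for Toll-like receptors, 1 to 6 for NF-kappaB, 0 to 2 for turnover, 4 to 7 for neutrophil markers, 2 to 4 for mast cells and 0 to 1 for lineage antigens. Human counts ranged from 1 to 2 for mast cells and from 1 to 2 for lineage antigens. Low counts limit the precision of TNF in human, with 4 to 24 reads per library, and of the whole set in mouse, with at most 51.

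Same-numbered libraries did not deviate together throughout (mouse correlations 0.316, -0.177 and 0.0131, human -0.0138, -0.00238 and -0.000862). The numbers were therefore not taken to pair the samples. Mouse libraries of unlike number shared deviations as well. The correlation of WT replicate 3 was 0.408 with cKO replicate 2 and -0.419 with cKO replicate 1, and its source was not tested. With a replicate block, 5166 mouse and 10601 human genes were called, against 5443 and 10631. Tnf and Il6 stayed called under the block (edgeR adjusted p 0.0167 and 0.0108), and 0 lineage antigens were called.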
